A study of Mus musculus with 6 samples.

Results

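The precursors of miR-21 and miR-34a, a pair of miRNAs named in the injury and stress literature, were followed in small RNA libraries of mouse retina with and without Dicer1 in rods. They were chosen by name, as the rows mmu-mir-21a and mmu-mir-34a (here without the species prefix), and make up 2 of the 855 miRNA precursors in the table. All libraries came from retinas of 4-week-old mice of a mixed background, C57BL/6J and SJL, collected between 8 and 10 in the morning. The cKO group carried floxed Dicer1 alleles and the iCre75 transgene (Dicerfl/fl, iCre75+), and the control group the same floxed alleles and no transgene (Dicerfl/fl, iCre75-). There were 3 libraries per genotype, each from a pool of 6 retinas. iCre75 drives Cre recombinase from a rod opsin promoter, so that cells other than rods keep Dicer1. The libraries are of whole retina, in which fewer cells of a type and less RNA per cell cannot be told apart.

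Dicer1 is the RNase that trims hairpin precursors into mature miRNAs. miR-21 is transcribed with the 3' end of Vmp1, a gene of autophagy, and is known to be induced in reactive glia, inflammation and tumours. miR-34a is a direct transcriptional target of the tumour suppressor p53, as are its relatives miR-34b and miR-34c, which are made from a separate transcript, and it is known to repress cell cycle genes and survival genes such as Bcl2 and Sirt1. In the RefSeq table used here (GRCm38.p6) the mir-21a hairpin, of 92 bases on chromosome 11, lies on the same strand as Vmp1 and inside its annotated UTR in GENCODE. The mir-34a hairpin, of 102 bases on chromosome 4, lies in no annotated protein-coding gene. It overlaps in part an exon of Gm37795, annotated on the same strand. The values were mapped to mm9, another build, and no positions are given.

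The mature sequences are shown because the seed, bases 2 to 8 from the 5' end (in capitals), sets which relatives could act on the same targets. All are from RefSeq (GRCm38.p6), and the deposited value of a precursor does not separate its arms.
miR-21a-5p: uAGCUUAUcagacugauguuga
miR-21a-3p: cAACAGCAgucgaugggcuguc
miR-21b: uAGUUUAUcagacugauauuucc
miR-21c: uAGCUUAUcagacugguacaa
miR-34a-5p: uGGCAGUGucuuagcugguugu
miR-34a-3p: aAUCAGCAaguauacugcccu
miR-34b-5p: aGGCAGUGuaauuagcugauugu
miR-449a-5p: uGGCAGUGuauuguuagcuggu
miR-449c-5p: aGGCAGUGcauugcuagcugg
miR-34c-5p, miR-449b and miR-590 are named only. The seed of miR-34a-5p is shared by miR-34b-5p, miR-449a-5p and miR-449c-5p. miR-21c shares the seed of miR-21a-5p and its first 15 bases, whereas miR-21b differs inside the seed, by C4U, with positions counted from 1 at the 5' end of miR-21a-5p. The other differences of miR-21b are G18A, G21U and A22C.

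In control retina mir-21a was far more abundant than mir-34a. In RPKM (reads per kilobase of precursor, scaled by the reads of the library, the deposited unit) mir-21a stood at 7202, 7287 and 7235 in control 1 to 3, and at 6799, 6375 and 6507 in cKO 1 to 3. Every cKO library lay below every control library, and the gap was narrow: the means were 7241 ± 43.0 and 6560 ± 217 RPKM (SD, n = 3 each). The level of mir-34a was 142, 127 and 115 RPKM in control and 204, 207 and 195 RPKM in cKO libraries. Here every cKO library lay above every control library, with means of 128 ± 13.2 and 202 ± 6.24 RPKM (SD, n = 3 each).

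**Figure D1:**
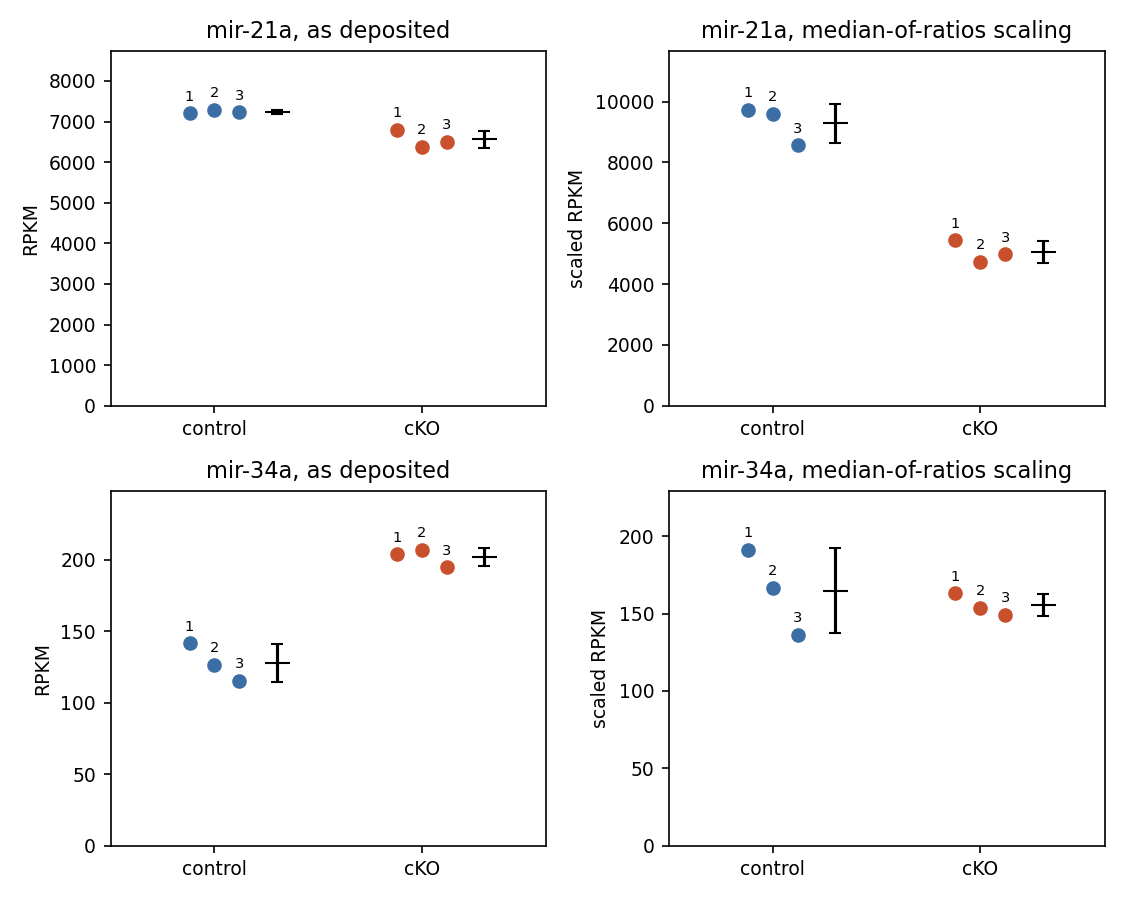
RPKM of mir-21a (top) and mir-34a (bottom) in each library, numbered by replicate, as deposited (left) and after median-of-ratios scaling (right); bars give the mean ± SD of 3 libraries. As deposited mir-34a lies higher in cKO and mir-21a slightly lower; after scaling the 2 groups of mir-34a overlap and mir-21a lies at 4733 to 5444 in cKO against 8557 to 9724 in control.

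The depth behind these values differs widely between the members. Library totals recovered from the values were 5480940 to 7478237 reads. mir-21a was read 4622 to 4955 times in control and 3281 to 4332 times in cKO libraries, and mir-34a only 83 to 108 and 109 to 146 times. In control 1 mir-21a held 663 reads per 1000000 (Wilson 95% interval 644 to 681) and in cKO 1 it held 625 (607 to 644). For mir-34a control 2 gave 12.9 (10.5 to 15.9) and cKO 1 gave 20.8 (17.7 to 24.5) reads per 1000000. The intervals of the highest control and the lowest cKO library overlapped, with control 1 (14.4) reaching up to 17.4 and cKO 3 (19.9) down to 16.5. An overlap of intervals does not by itself decide whether counting error separates these libraries, and their difference was not tested. Such intervals hold for counting error alone, because amplified reads that carry no molecular identifier may be copies of one molecule. Counting alone gives mir-34a a relative error of 8.28% to 11.0% per library, against an observed spread of 10.3% in control and 3.09% in cKO. The spread of mir-21a in control, 0.593%, was smaller than its counting error of 1.42% to 1.47%, so that the closeness of those 3 values is no measure of how much control retinas vary.

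In the values as deposited mir-34a rose and mir-21a did not pass the test. The log2 fold change of mir-34a, cKO minus control, was 0.66 (SE 0.16, 95% interval 0.30 to 1.02), a 1.58-fold rise (limma on log2(RPKM + 1), Benjamini-Hochberg adjusted p = 0.0048 over the 461 precursors whose mean reached 10 RPKM). That of mir-21a was -0.14 (SE 0.12, 95% interval -0.41 to 0.12; limma adjusted p = 0.29). A rise was the common outcome: 69.4% of all tested precursors were called higher and 1.74% lower, and in 71.6% all cKO libraries lay above all control libraries. For 1.95% of precursors all cKO libraries lay below all controls, the pattern of mir-21a. The labels call the libraries biological replicates but do not say which mice entered each pool. The limma p-values rest on the spread between these pools, with each precursor's variance drawn toward that of precursors of like level. The SE of mir-21a is thus not set by its own spread alone, 0.593% in control and 3.31% in cKO.

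RPKM is relative to its own library, and the photoreceptor miRNA mir-182, the most abundant precursor in control, was lower in cKO retina. The median log2 fold change of all tested precursors was 0.74 as deposited. Against that median mir-34a lay 0.080 lower and mir-21a 0.88 lower on the log2 scale. Of the other 460 precursors 178 had a lower fold change than mir-34a, but only 20 had a lower one than mir-21a.

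Scaling by the median of ratios, under which the typical precursor is level across libraries, exchanged the calls of the members. Scaled values of mir-21a were 9724, 9592 and 8557 in control and 5444, 4733 and 4983 in cKO libraries, and mir-21a fell by 0.88 on the log2 scale (SE 0.12; limma adjusted p = 0.0021). Here 9.98% of precursors were called lower and 2.17% higher, and in 20% all cKO libraries lay below all control libraries, as they did for mir-21a, with 15% the other way round. mir-21a also fell with quantile normalization, with totals taken without the 10 most abundant precursors and with totals taken without mir-182 reads, where 6.29%, 6.29% and 7.81% of precursors were called lower. Leaving out each library in turn, with the scaling factors still taken from all 6, gave -0.94 to -0.83 for mir-21a. Scaled values of mir-34a were 191, 167 and 136 in control and 163, 154 and 149 in cKO libraries. The groups overlapped, and the log2 fold change was -0.071 (SE 0.17, 95% interval -0.44 to 0.30; limma adjusted p = 0.87). The rise of mir-34a was therefore called only relative to the library total, and the fall of mir-21a only relative to scalings that discount the largest precursors.

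**Figure D2:**
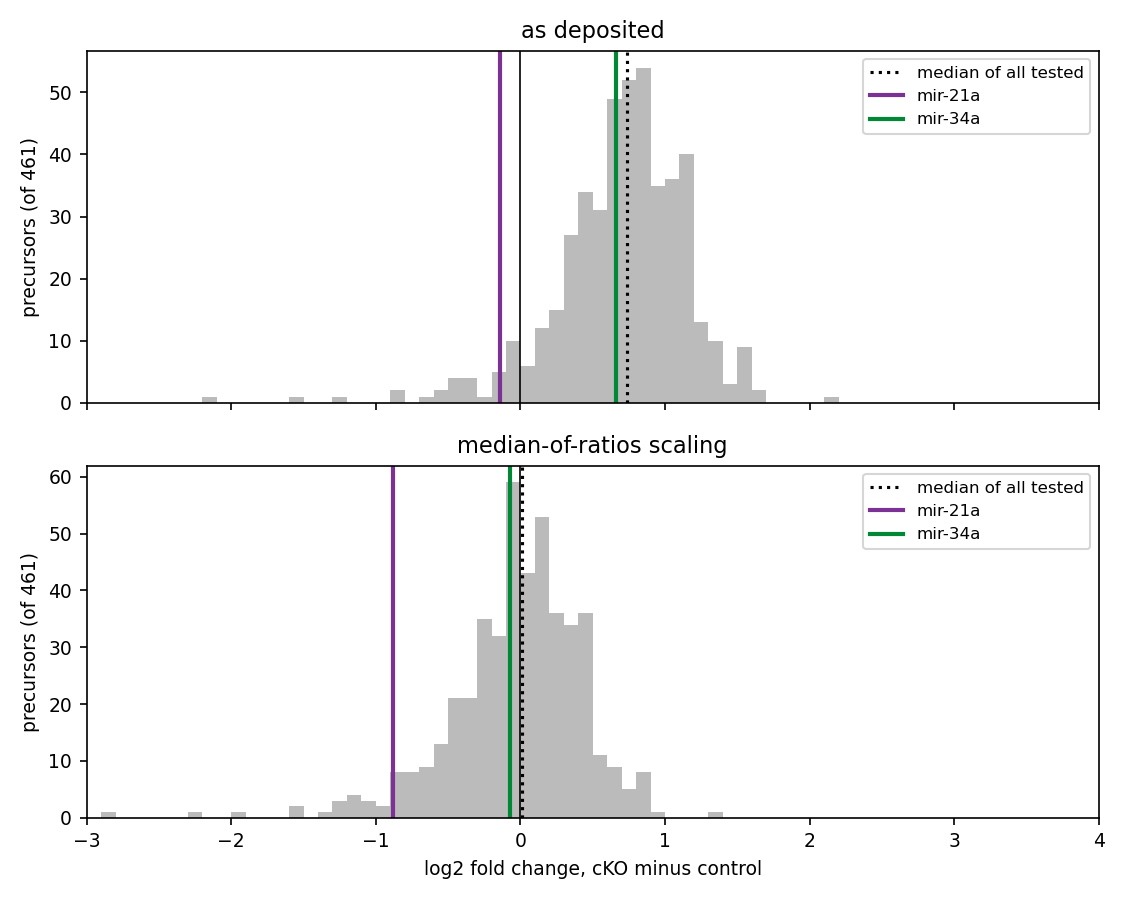
Number of tested precursors by log2 fold change, cKO minus control, in bins of 0.1, as deposited (top) and after median-of-ratios scaling (bottom); coloured lines mark mir-21a and mir-34a and the dotted line the median of all 461. In both panels mir-34a lies near the median and mir-21a in the lower tail.

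Ratios within a library do not depend on its total and gave the same order. mir-34a amounted to 1.97%, 1.74% and 1.59% of mir-21a in control and to 3.00%, 3.25% and 3.00% in cKO libraries. From control to cKO retina the ratio was 1.75-fold higher, or 0.81 on the log2 scale, with no overlap between groups. With 3 libraries a side an exact two-sided permutation cannot go below p = 0.1, and it gave p = 0.1. Control retina thus held 57.1 ± 5.97 times as much mir-21a as mir-34a per length, and cKO retina 32.5 ± 1.48 times as much (SD, n = 3 each).

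Each member was then set against 6 abundant miRNAs, and the 12 ratios were tested by exact two-sided permutation with Benjamini-Hochberg adjustment, which cannot go below the unadjusted p = 0.1. Relative to mir-181a-2 of the inner retina, mir-21a was 1.81-fold lower in cKO retina, a log2 difference of -0.86. Relative to mir-9-2 of progenitors and Müller glia it was likewise 1.82-fold lower (-0.86). Against the broadly expressed let-7f-2 and mir-26a-2 it was 1.46-fold and 1.59-fold lower. In these 4 ratios the groups did not overlap (exact permutation adjusted p = 0.15 each). Relative to mir-124-3 of neurons, which as deposited did not pass either, the log2 difference of mir-21a was -0.072 and the groups overlapped (exact permutation p = 0.9). Relative to mir-182 it was 1.65-fold higher, without overlap (log2 difference 0.72).

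mir-34a ran beside the inner retinal and glial miRNAs, as it did beside most precursors, with overlapping ratios for 76.3% of the others tested. Its log2 ratio to mir-181a-2 differed by -0.047 and that to mir-9-2 by -0.056, with overlapping groups (exact permutation p = 0.7 and 0.4). The ratio to mir-26a-2 also overlapped, at 0.14. Relative to mir-182 mir-34a was 2.88-fold higher in cKO retina and relative to mir-124-3 it was 1.67-fold higher, both without overlap. The log2 ratio to let-7f-2 was 0.26 higher, again without overlap (exact permutation adjusted p = 0.15 for each of these 3). With 3 libraries a group no ratio passed the threshold.

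**Figure D3:**
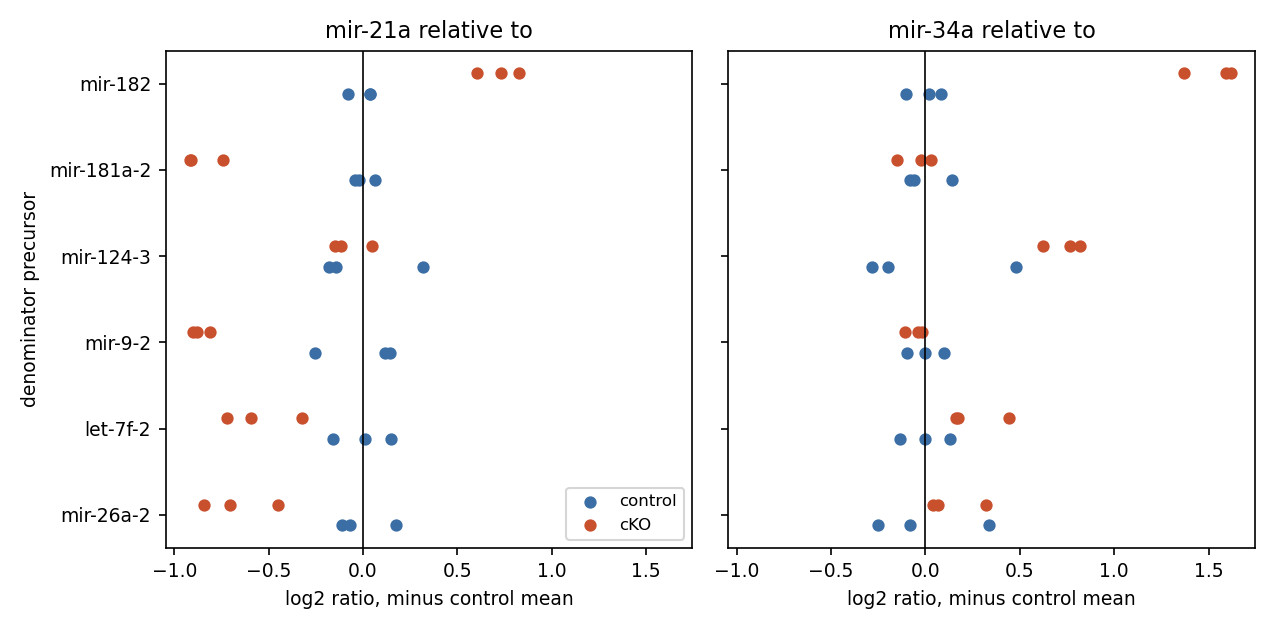
Log2 ratio of mir-21a (left) and mir-34a (right) to 6 abundant precursors, each point a library, with the mean of the 3 control libraries set to 0. mir-21a lies to the left in cKO against mir-181a-2, mir-9-2, let-7f-2 and mir-26a-2, while mir-34a stays near 0 against mir-181a-2 and mir-9-2.

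The same was seen across all tested precursors. Of 460 others, the ratio of mir-21a to 356 (77.4%) was lower in every cKO library than in every control library. It was higher for 8 (1.74%), and for 96 (20.9%) the groups overlapped. For mir-34a the ratio was lower for 56 (12.2%), higher for 53 (11.5%) and overlapping for 351 (76.3%). These counts share the numerator and describe its place among the other precursors.

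By rank among the 855 precursors mir-21a stood at places 85 to 88 in control and 104 to 108 in cKO libraries (exact two-sided permutation p = 0.1). No precursor moved from above mir-21a to below it in every library, and 14 moved from below in every control to above in every cKO library. Among those 14 were mir-138-2, mir-541, mir-99a, mir-100, mir-149, mir-130b and mir-411, named here after their values were seen. The rank of mir-34a was 262 to 285 in control and 276 to 286 in cKO, with overlap (exact permutation p = 0.5), and mir-495 and mir-3085 moved past it.

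The nearest precursors by mean control level set each member beside others of like abundance. Just above mir-21a in control came mir-136 (7433 ± 351 RPKM) and mir-192 (7718 ± 328 RPKM), and just below it mir-126 (7108 ± 1740 RPKM) and mir-140 (6800 ± 2275 RPKM; SD, n = 3 each). The control libraries of mir-136, mir-126 and mir-140 overlapped those of mir-21a, so that their order is not resolved. As deposited mir-136, mir-192, mir-126 and mir-140 rose 1.80-, 1.24-, 2.58- and 1.73-fold (limma adjusted p = 5.0e-04, 0.042, 3.1e-04 and 0.022). Around mir-34a stood mir-543 (135 ± 32.6), mir-193b (136 ± 35.8), mir-365-1 (126 ± 13.6) and mir-5103 (122 ± 43.9 RPKM; SD, n = 3 each), none separated from it in control. They rose 2.08-, 2.27-, 1.72- and 2.01-fold as deposited (limma adjusted p = 0.0016, 9.3e-04, 0.0022 and 0.0038), against 1.58-fold for mir-34a.

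The relatives of miR-21 gave little more signal. mir-21c was listed at 0 in every library, which allows a share of up to 0.401 to 0.547 reads per 1000000 (3 reads), and so was mir-590, a further relative. mir-21b had 124, 125 and 113 RPKM in the control libraries, and 187, 233 and 297 RPKM in those of cKO retina. It rose 1.94-fold as deposited (log2 0.96, SE 0.19; limma adjusted p = 0.0020), and at 0.23 with median-of-ratios scaling it did not pass (adjusted p = 0.48). It rested on 86 to 176 reads a library. The hairpins of mir-21a and mir-21b share a stretch of 20 bases with at most 1 mismatch, so that reads of one could be placed at the other. mir-21b amounted to 1.72%, 1.71% and 1.56% of mir-21a in control but to 2.75%, 3.66% and 4.57% in cKO libraries. The ratio was 2.16-fold higher in cKO retina without overlap (exact two-sided permutation p = 0.1, the lowest it can reach). The spread of mir-21b was 5.57% in control and 23.1% in cKO libraries. Whether reads of mir-21a enter the values of mir-21b was not tested.

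The miR-34 family was dominated by mir-34b and mir-34c. mir-34b stood at 1339, 981 and 1072 RPKM in control and at 2128, 2113 and 1898 RPKM in cKO libraries. mir-34c stood at 1533, 1157 and 1267 RPKM in control and at 2541, 2523 and 2272 RPKM in cKO libraries. In both, control 1 was the highest control library, and no cKO library came down to it. Per length, mir-34b was 8.84 ± 0.944 times as high as mir-34a in control and 10.1 ± 0.358 times as high in cKO retina (SD, n = 3 each), with log2 ratios that differed by 0.20 (exact two-sided permutation p = 0.1). The share of mir-34a in the summed family was 4.93% ± 0.523 for control and 4.26% ± 0.152 for cKO libraries (SD, n = 3 per genotype). Any read entered at both mir-34b and mir-34c counts at each in that sum, which would make the share of mir-34a too low. The hairpins of mir-34b and mir-34c share a stretch of 20 bases with at most 1 mismatch, so that reads of one could be placed at the other. Their ratio ran from 1.15 (control 1) to 1.197 (cKO 3), and they are not taken as separate measurements.

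mir-34b rose 1.82-fold (log2 0.87, SE 0.16) and mir-34c 1.86-fold (log2 0.90, SE 0.15) as deposited (limma adjusted p = 0.0011 and 9.2e-04). Neither passed after median-of-ratios scaling, where mir-34b was at 0.13 and mir-34c at 0.16 (limma adjusted p = 0.70 and 0.57). mir-449a, a miRNA of multiciliated cells with the same seed, stood at 36.7, 22.3 and 42.0 RPKM in control and at 61.9, 63.6 and 40.1 RPKM in cKO libraries. Its groups overlapped and it did not pass, at 0.71 (SE 0.31; limma adjusted p = 0.058), although it did without control 3 (0.89, adjusted p = 0.038) or without cKO 3 (0.92, adjusted p = 0.035). mir-449c had at most 4 reads and mir-449b at most 1 read in any library, and neither was tested.

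**Figure D4:**
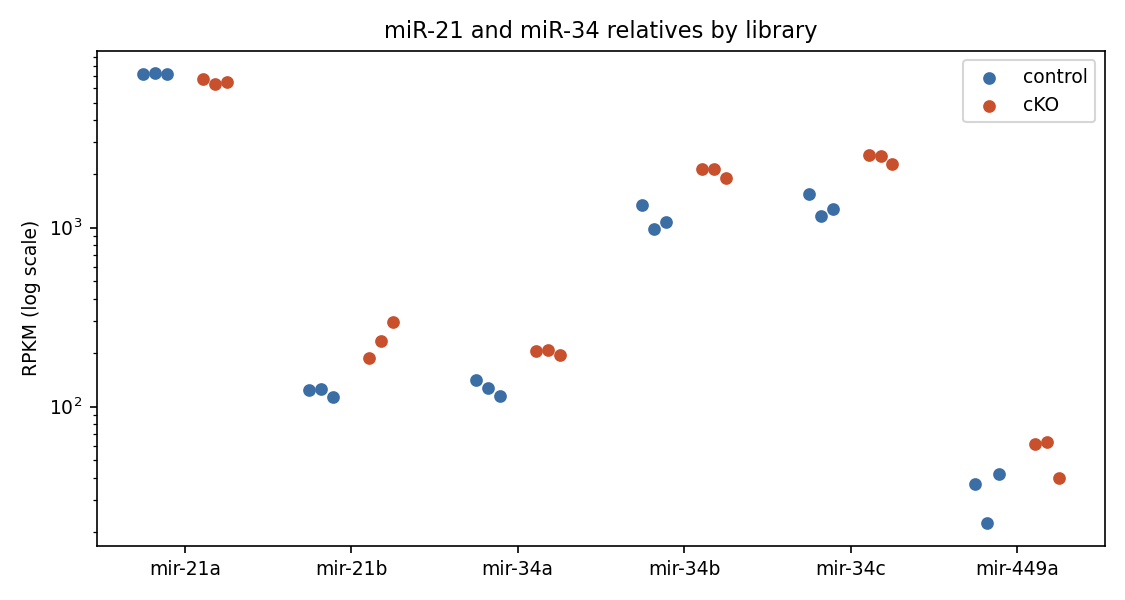
RPKM on a log axis of mir-21a, mir-21b, mir-34a, mir-34b, mir-34c and mir-449a in each of the 3 control and 3 cKO libraries. mir-34b and mir-34c lie well above mir-34a in both genotypes, and mir-21a is the only precursor of the 6 with all cKO libraries below all controls.

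Of 12 p53-linked precursors, mir-34a to c included, 11 rose as deposited and none fell, where 69.4% of all tested precursors rose. Their median log2 fold change was 0.73, against 0.74 over all tested. The rise was 1.70-fold for mir-107, 1.56-fold for mir-143, 1.71-fold for mir-145a, 1.62-fold for mir-15a, 1.39-fold for mir-16-1 and 1.24-fold for mir-192. mir-194-1 and mir-194-2, near-identical copies, rose 1.73- and 1.74-fold. mir-215 did not pass at 0.24 (limma adjusted p = 0.23). None of the 12 rose with median-of-ratios scaling, mir-192 fell by 0.43 (limma adjusted p = 0.039), and the median was -0.0044. Of all tested precursors 2.17% rose and 9.98% fell in that fit, with a median of 0.014.

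Among 9 miRNAs linked to glial reactivity and inflammation, mir-21a included, 3 of 8 tested rose as deposited and none fell, where 69.4% of all tested precursors rose and 1.74% fell. These were mir-132, an activity-dependent miRNA of neurons, at 1.78-fold, and the copies mir-125b-1 and mir-125b-2 at 1.63- and 1.65-fold (limma adjusted p = 0.0074, 0.0028 and 0.0025). The other 5 did not pass: mir-21a, mir-27a at 0.14, mir-146a at 0.62, mir-146b at 0.24 and mir-155 at 0.10 on the log2 scale. The list's median was 0.43, below the 0.74 of all tested. Without control 3 the number that rose was 5, where 322 of all tested precursors rose, against 320 with all libraries. With median-of-ratios scaling mir-21a and mir-27a fell, mir-27a by 0.60 (adjusted p = 0.0072 by limma), none rose, and the median was -0.30, where 9.98% of all tested precursors fell and 2.17% rose and the median of all was 0.014. mir-223 of myeloid cells was below the level for testing, with means of 3.84 ± 2.26 RPKM for control and 7.79 ± 3.59 RPKM for cKO libraries (SD, n = 3 per genotype).

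Among 8 miRNAs named in studies of retinal degeneration, mir-142 of blood-derived cells rose 1.85-fold as deposited and the muscle copies mir-133a-1 and mir-133a-2 rose 1.57-fold each, while the photoreceptor miRNAs mir-182 and mir-96 fell, by 0.86 and 0.49 on the log2 scale. These 3 rises and 2 falls stand beside 69.4% and 1.74% of all tested precursors. The muscle miRNAs mir-1a-1 and mir-1a-2 stood at 0.54 and 0.53 and did not pass (limma adjusted p = 0.10 and 0.11), nor did mir-183 at -0.11. The list's median was 0.54, against 0.74 over all tested. Without control 2, cKO 2 or cKO 3 only 1 of the 8 rose and 1 fell. Over all tested precursors these 3 fits called 255, 252 and 274 up and 4, 5 and 5 down, against 320 and 8 with all libraries. With median-of-ratios scaling none rose and mir-182, mir-96 and mir-183 fell, beside 2.17% and 9.98% of all tested. The hypoxia-induced mir-210 did not pass in either scale, at 0.29 and -0.45 (adjusted p = 0.17 and 0.12).

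**Figure D5:**
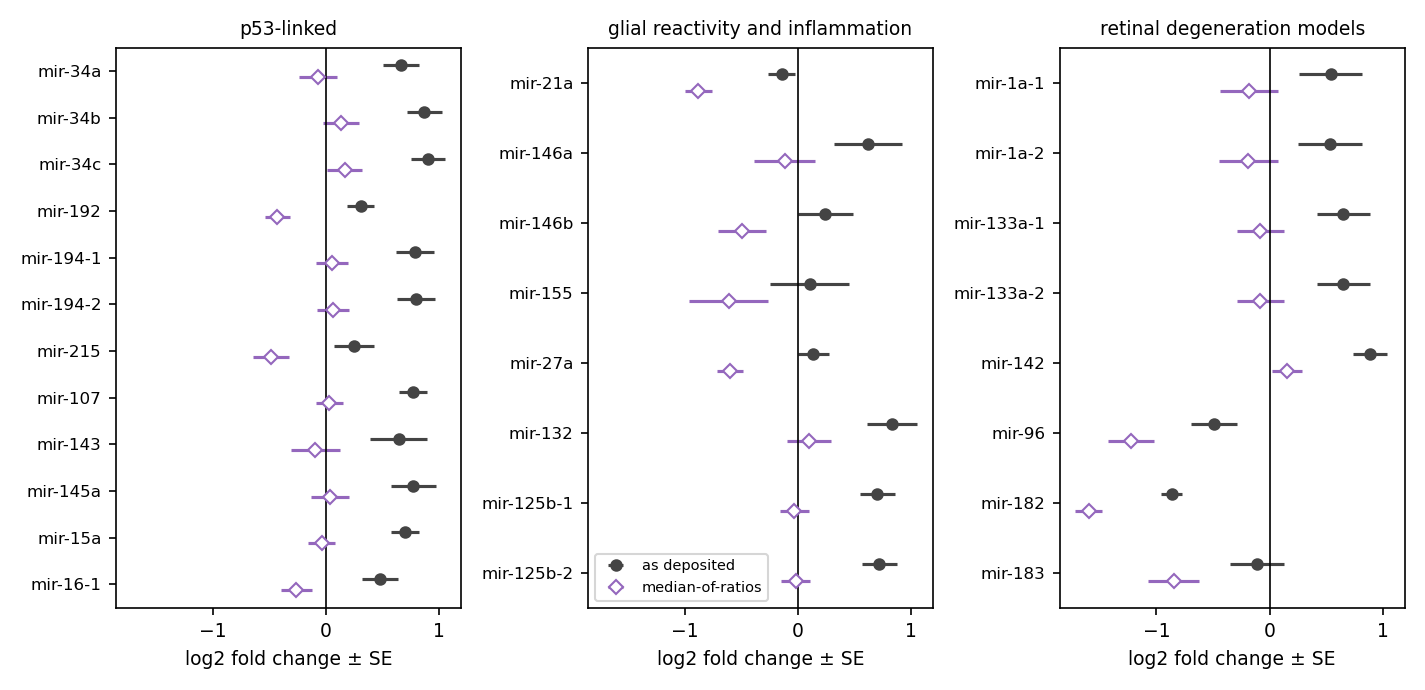
Log2 fold change ± SE, cKO minus control, of the tested members of 3 lists (p53-linked, glial reactivity and inflammation, retinal degeneration models), as deposited (filled) and after median-of-ratios scaling (open). As deposited mir-21a is the only tested member of the first and second lists below 0.

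Markers of retinal cell types are given beside the members, and their calls read against the 69.4% of all tested precursors that rose as deposited (median 0.74) and the 2.17% after scaling (median 0.014). The 3 photoreceptor precursors summed to between 7568210 and 7894240 RPKM in control and between 4037710 and 4911540 RPKM in cKO libraries. Of the 6 precursors of Müller glia and progenitors all rose as deposited (median 0.72) and none after median-of-ratios scaling (median -0.015). Apart from mir-204 these are copies of mir-9 and mir-125b, so they are not 6 separate measurements. The 4 inner retinal precursors, copies of mir-181a and mir-181b, likewise all rose as deposited (median 0.71) and none after scaling (median -0.023). Of 5 tested microglial and leukocyte precursors 3 rose as deposited (mir-142, mir-150 and mir-342), with summed levels over all 6 on the list of 4991 to 6380 RPKM in control and 9965 to 12268 RPKM in cKO, and none after scaling. The 3 neuronal copies of mir-124 did not pass as deposited and fell after scaling, where 9.98% of all tested precursors fell. As copies they are not taken as separate measurements. The 7 markers of lens, cornea and other epithelium summed to 2595 to 54452 RPKM in control and 25484 to 63564 RPKM in cKO libraries, and none of the 6 tested was called. Of the vessel markers 3 of 3 and of the red cell markers 2 of 3 rose as deposited, against 1 of 3 and 0 of 3 after scaling. No marker of these lists was at 0 in all libraries, and the part of cell composition in the values of mir-21a and mir-34a was not tested.

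The precursors whose pattern over the 6 libraries was most like each member's were ranked by Pearson's r on log2(RPKM + 1) among 305 others with a mean of at least 100 RPKM. For mir-21a they were mir-182 (r = 0.97), mir-483 (0.95) and mir-1947 (0.90) as deposited, and mir-182 (1.00), mir-3078 (0.99) and mir-483 (0.98) with median-of-ratios scaling. mir-182, mir-483, mir-1947 and mir-3078 stood at -0.86, -0.86, -0.43 and 0.014 as deposited. For mir-34a they were mir-376a, mir-181c and mir-15b (0.99 each) as deposited, with log2 fold changes of 0.94, 0.77 and 0.70. With scaling they were mir-15a (0.97), mir-15b (0.94) and mir-9-2 (0.93). All 6 points share the split by genotype and the library totals, so that these values rank resemblance and carry no test.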

How the data were processed

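The authors deposited RPKM values (reads per kilobase of precursor, scaled by library reads) for 855 precursors in 6 libraries; Bowtie and mm9 are named per the submitters' processing notes, and not given in the sources used here are its version, the annotation, filters and the handling of multiply mapping reads. Library input was 1 µg of RNA per the labels' protocols, with 11 rounds of PCR, gel selection of miRNA-sized inserts and 1 shared run of 50-base reads. Values times precursor lengths (by name, from RefSeq or GENCODE, GRCm38) gave whole reads in 99.9% of 4998 values (tolerance 0.01 reads), and with them totals. Summed over precursors, the reads exceed the library total by a factor of 1.55 to 1.86, so multiply mapping reads are entered at each place. Groups follow the labels' descriptions; Dicer1 mRNA was not analysed here, so no value checks the genotypes.

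Differences were fitted with limma 3.58.1 in R 4.3.3 (eBayes with trend) on log2(RPKM + 1) without scaling, a scale that understates changes of low precursors, for the 461 precursors whose mean reached 10 RPKM. Adjusted p values follow Benjamini and Hochberg, threshold 0.05, and "rose" or "fell" means past it. The fit was tested on simulated data. Single ratios were tested by exact permutation, and shares have Wilson 95% intervals (scipy 1.17.1). Figures used matplotlib 3.10.9.

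The members and lists were chosen with earlier results of these data known. Named by rule were both members, their relatives, called or most abundant list members, the 3 most alike precursors per scale, the 2 neighbours on either side and the 6 denominators. Alternatives covered pseudocount, filter, scaling, variance model, voom on recovered reads, a replicate block and each library left out in turn; combining median-of-ratios scaling with the block or a left-out library was added after seeing the data.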

Additional observations from a re-analysis of the deposited data

How the results depend on the processing

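Scaling decided both members' calls, and no pseudocount, filter, left-out library or variance model tried did on the deposited scale. Each variance model tried shares variance across precursors, and a fit on the members' own spread alone was not run. For mir-21a the log2 fold change was -0.88 with median-of-ratios scaling (also by voom on recovered reads), -0.78 with quantile normalization, -0.65 with totals without the 10 most abundant precursors and -0.77 with totals without mir-182 reads, each past the threshold (limma adjusted p = 0.0016 to 0.010). For mir-34a the same settings gave -0.071 (-0.069 by voom), -0.20, 0.15 and 0.040, none past it. Leaving out 1 library gave -0.17 to -0.12 for mir-21a, 0.59 to 0.74 for mir-34a and 0.74 to 0.89 for the log2 ratio of mir-34a to mir-21a. With median-of-ratios scaling, added after seeing the data, it gave -0.94 to -0.83 for mir-21a and -0.20 to 0.043 for mir-34a. In these fits the filter and the scaling factors came from all 6 libraries, before 1 was left out. mir-449a turned to -0.0041 with median-of-ratios scaling (-0.0036 by voom) and to -0.14 with quantile normalization. mir-34b, mir-34c and mir-21b lost their calls and kept their sign under each of these scalings.

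Counts of called precursors were 328 as deposited (320 up, 8 down), 56 with median-of-ratios scaling (10 up, 46 down), 55 by voom with it (9 and 46), 41 with quantile normalization (12 and 29), 86 without the 10 most abundant (57 and 29) and 56 without mir-182 reads (20 and 36). A minimum mean of 100 RPKM left 4 down. Without 1 library, 257 to 326 were called, 252 to 322 up and 4 to 12 down. The cause of these shifts beyond the scaling itself was not tested.

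Same-numbered libraries deviated together with r = 0.19, 0.26 and 0.0093, and control 3 did not correlate best with its own number, so the numbers are not taken to pair the samples. The replicate block gave -0.14 for mir-21a, 0.66 for mir-34a, 0.81 for their ratio and 348 called precursors (338 up, 10 down), with median-of-ratios scaling -0.88 and -0.071. Depth limits mir-34a, at 83 to 146 reads a library, more than mir-21a.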
